A study of Mus musculus with 6 samples.

Results

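The genes described here are 34 mouse genes of glycolysis and the carbon metabolism tied to it, chosen by name: glucose and lactate transporters, the enzymes from hexokinase to pyruvate kinase, pyruvate dehydrogenase and its kinase, the glycerol-phosphate and malate shuttles, citrate synthase, and the regulators Myc, Hif1a and Egln3. They fill 35 of the 55840 rows of the deposited gene table, since Aldoa is listed under 2 identifiers, and all 34 passed the filter on low counts that left 14919 genes. RNA was sequenced from Tregs, the Foxp3-expressing T cells that hold back immune responses, taken from spleen and lymph nodes. The cells were of wild-type (WT) mice or of mice called Exon2KO in the table and Foxp3∆2 in the series title, with 3 libraries each. Foxp3 is the transcription factor that defines Tregs, and the edited mice carry a form of it named for its exon 2. Strain, age, sex and the way the allele was made are not given in the sources used here. The titles call the libraries biological replicates, so they are taken as separate biological samples, but which animals they came from is not stated.

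Glycolysis splits glucose into pyruvate in the cytosol, yielding ATP and NADH; lactate dehydrogenase or the mitochondrial shuttles then take the electrons from that NADH. Activated T cells raise this pathway under Myc, HIF-1 and mTOR signalling, while Tregs are known for leaning more on mitochondrial oxidation, and Foxp3 itself has been linked to lower Myc and glycolytic expression. The glycerol-phosphate shuttle runs through the mitochondrial enzyme GPD2, and the malate-aspartate shuttle through the cytosolic and mitochondrial malate dehydrogenases MDH1 and MDH2.

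The libraries held 17998216 to 21003496 counts. Their columns are numbered 2, 6 and 20 in each genotype, and libraries are named here by genotype and that number; the labels do not say what the numbers mark. Foxp3 was at 783, 602 and 751 CPM (counts scaled to a common library size and for library composition) in WT 2, WT 6 and WT 20, and at 826, 684 and 925 CPM in Exon2KO 2, Exon2KO 6 and Exon2KO 20; a count over the whole gene does not report 1 exon and so does not check the label. The 7 T cell and Treg markers (Cd3e, Cd3d, Cd4, Foxp3, Il2ra, Ctla4 and Ikzf2) summed to between 3140.1 and 3822 CPM in every library. Of these, 3 (42.9%), Il2ra, Ctla4 and Ikzf2, were lower in Exon2KO at an adjusted p under 0.05, against 1.58% of all genes tested. The other 4 had positive log2 fold changes, Exon2KO over WT, of at most 0.22 and did not pass. Markers of other cells were low: B cell markers summed to 31.1 to 31.9 CPM in WT and 24.8 to 27.6 CPM in Exon2KO, CD8 and NK markers to 14.9 to 22.2 CPM, and erythroid markers to 3.49 to 17.4 CPM. No gene of these lists was at 0 throughout; of the stromal and endothelial list, at 165 to 225 CPM with Pecam1 alone at 163 to 225 CPM, Col3a1 was. Both libraries numbered 20 stood apart, with 15 proliferation genes at 1806 and 1389.7 CPM against 911 to 1119.8 CPM in the others, and 7 myeloid markers at 79.4 and 65.0 CPM against 29.7 to 35.1 CPM.

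In the comparison of all 6 libraries 3 of the 34 genes differed between genotypes: the glucose transporter gene Slc2a3 and the triose-phosphate isomerase gene Tpi1 were lower in Exon2KO, and the glycerol-phosphate shuttle gene Gpd2 was higher. These 3 of 34 (8.82%) passed an adjusted p of 0.05 in edgeR's quasi-likelihood test, against 2.33% of all genes tested. The 1 higher gene stands against 0.757% of all genes and the 2 lower ones against 1.58%. With the column number as a replicate block, 9 of 34 (26.5%) passed, against 9.72% of all genes. The added genes were Eno1 and Pdk1, which were higher, and Aldoc, Slc16a3, Hif1a and Mdh1, which were lower. In that fit 3 of the 9 were higher and 6 lower, where 3.93% and 5.79% of all genes passed in those directions. In the same fit 6 of the 15 proliferation genes, 1 of the 7 myeloid markers (Lyz2) and 1 of the 5 B cell markers (Cd79b) were lower in Exon2KO, and Pecam1, 1 of 3 stromal and endothelial markers tested, was higher; their part in the results for the 34 genes was not tested. The other 4 B cell markers did not pass (log2 fold changes -0.01 to 0.39 with the block), nor did Col1a1 and Col1a2, the other stromal markers tested (-1.21 and -1.64, at most 2.96 CPM in any library). The median log2 fold change over the 34 genes was -0.02, beside 0.01 over all genes tested, and 26 of the 34 (76.5%) had an estimate within 0.25 of 0, near the 69.1% of all genes tested. For 12 of 34 genes (35.3%) the CPM of the genotypes did not overlap, against 17.7% of all genes. The 34 genes were chosen with earlier results of these data known, so these shares describe the list and do not test it. The authors' deposited table has 4 of the 34 at an adjusted p under 0.05 (Slc2a3, Tpi1, Gpd2 and Slc16a3), with 2.55% of its genes past that value.

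**Figure D1:**
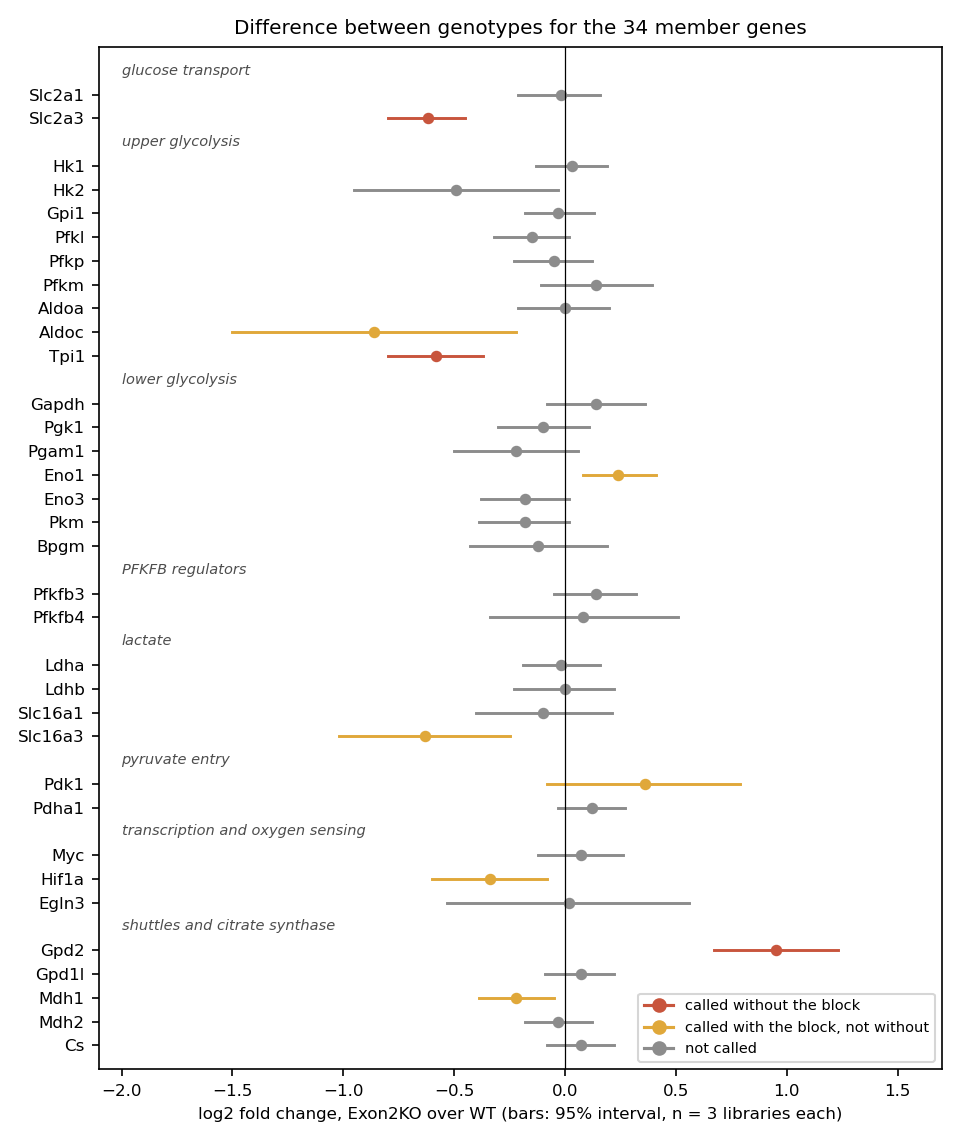
Fitted log2 fold change of each of the 34 genes, Exon2KO over WT, grouped by role, with 95% intervals from the fit without the replicate block (3 libraries per genotype). The intervals of 9 genes leave out 0: Slc2a3 (-0.62), Tpi1 (-0.58) and Gpd2 (0.95), which passed after adjustment, and Hk2, Aldoc, Eno1, Slc16a3, Hif1a and Mdh1, which did not in that fit. Yellow marks the genes called in edgeR's fit with the block and not in the fit without it.

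Glucose enters T cells mainly through GLUT1 and GLUT3, the products of Slc2a1 and Slc2a3. Slc2a3 (ENSMUSG00000003153, chr6:122727809-122801640, mm10, minus strand) was at 133, 143 and 135 CPM in WT 2, 6 and 20, and at 83.1, 89.4 and 94.6 CPM in Exon2KO 2, 6 and 20. Every Exon2KO library was below every WT library. The fitted log2 fold change was -0.62 (SE 0.08, adjusted p = 0.00415), or 0.649 times the WT level. It was called in all 15 alternative settings tried, the highest adjusted p being 0.0363 without Exon2KO 2. Slc2a1 was at 56.5, 53.0 and 48.6 CPM in WT and 52.8, 51.3 and 51.5 CPM in Exon2KO, with overlapping groups and a log2 fold change of -0.02 (95% interval -0.21 to 0.16). The share of Slc2a3 in the summed FPKM of the pair, a level per gene length computed from the counts, was 53.2%, 56.6% and 57.4% in WT and 43.2%, 45.7% and 47.1% in Exon2KO. The mean difference was -10.4 percentage points, and the exact permutation p of 0.1 (two-sided) is the smallest that 3 libraries against 3 can give. Adjusted over the 8 family shares compared, it was 0.2. The size of the share depends on the deposited gene lengths, 7245 bases for Slc2a3 and 3506 for Slc2a1. Their longest coding transcripts have 3959 and 3260 bases. As a share of counts, Slc2a3 had means of 72.2% in WT and 63.1% in Exon2KO.

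In the upper part of the pathway, which primes glucose and cleaves it into triose phosphates, Tpi1 passed the test. TPI1 interconverts the triose phosphates so that both can go on to pyruvate. Tpi1 (ENSMUSG00000023456, chr6:124810586-124814296, minus strand) was at 75.2, 84.2 and 95.6 CPM in WT and at 56.7, 56.7 and 56.8 CPM in Exon2KO. The Exon2KO libraries lay close together below a wider WT range. The log2 fold change was -0.58 (SE 0.09, adjusted p = 0.0142), or 0.667 times WT. The call was lost without WT 6 and without Exon2KO 2, where the log2 fold change was -0.59 and the adjusted p 0.0538 and 0.0874, and was kept without both libraries numbered 20. Of the stretches of 50 bases in its longest coding transcript in GENCODE M21, 7.51% also occur in 2 pseudogenes.

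The hexokinases trap glucose in the cell. Hk1 carried nearly all of their transcripts and had a log2 fold change of 0.03 (95% interval -0.13 to 0.19). Hk2, the inducible form, was at 10.7, 9.03 and 13.2 CPM in WT and 9.50, 6.51 and 7.54 CPM in Exon2KO. Its groups overlapped, and its log2 fold change of -0.49 (SE 0.20) did not pass (adjusted p = 0.369, and 0.0674 with the block). Of the aldolases, Aldoa made up about all transcripts and had a log2 fold change near 0 (95% interval -0.21 to 0.20), and its second row held 33 counts in all and was not tested. Aldoc, the scarce form, was at 6.07, 3.91 and 5.11 CPM in WT and 3.33, 1.95 and 3.04 CPM in Exon2KO. Its groups did not overlap, and each Exon2KO library was below the WT library of the same number. The log2 fold change of -0.87 (SE 0.22) passed with the block (adjusted p = 0.0195) and not without it (adjusted p = 0.212). Gpi1 and the phosphofructokinase genes Pfkl, Pfkp and Pfkm, which make the enzyme that commits sugar to glycolysis, had log2 fold changes from -0.15 to 0.14, and none passed either fit.

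The lower part, from glyceraldehyde-3-phosphate dehydrogenase to pyruvate kinase, returns ATP. Here no gene passed without the block, and Eno1 alone passed with it. Eno1 encodes the main enolase of most tissues and was at 543, 549 and 500.4 CPM in WT and 646, 628 and 612 CPM in Exon2KO, so that the groups did not overlap. The log2 fold change was 0.25 (SE 0.06, adjusted p = 0.0214 with the block, 0.171 without). Eno1b, a near copy of Eno1 on another chromosome, was also higher with the block, at 15.5 to 17.2 CPM in WT and 20.4 to 22.8 CPM in Exon2KO (log2 fold change 0.38, adjusted p = 0.0368 with the block). As 72.2% of the 50-base stretches of Eno1 also occur at other loci, reads of these genes may have been split between them. Its copies, Eno1b among them, held 3503 counts against 65500 for Eno1. With these added, Eno1 had a log2 fold change of 0.25 in edgeR without the block (adjusted p = 0.165). The muscle enolase gene Eno3 had a log2 fold change of -0.18 and did not pass. Pkm, the pyruvate kinase of proliferating cells and T cells, was at 677, 721 and 819 CPM in WT and 613, 664 and 678 CPM in Exon2KO, with overlapping groups and a log2 fold change of -0.18 (95% interval -0.39 to 0.02, adjusted p = 0.497); without WT 20 it was -0.10. Gapdh, Pgk1, Pgam1 and Bpgm had log2 fold changes from -0.22 to 0.14 with no call in either fit.

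Gapdh was at 12.4 FPKM in WT, computed from the counts, beside 31.2 FPKM for Tpi1, the step before it. Pgk1, Pgam1 and Eno1, the steps after it in order, were at 82.0, 32.0 and 99.7 FPKM. The length used is the deposited gene length, 4133 bases for Gapdh, whose longest coding transcript in GENCODE M21 has 1420. For Tpi1 these lengths were 2753 and 1607 bases, and for Pgam1 1982 and 1775. The order of FPKM between genes therefore depends on the length used. In CPM, which has no length, the WT means were 50.6 for Gapdh and 62.8 for Pgam1. In the GENCODE M21 transcripts 82.5% of the 50-base stretches of Gapdh also occur in genes at other loci, 213 of those 218 genes being pseudogenes, and how reads with several matches were counted is not given in the sources used here. The share was 68.0% for Pgk1, 41.5% for Pgam1, 30.5% for Pkm, 27.0% for Ldhb, 19.3% for Gpi1, 16.7% for Ldha and 13.5% for Aldoa. The levels of these genes are therefore uncertain, above all that of Gapdh. It was 0% for Slc2a3, Gpd2, Slc16a3, Pdk1, Hk1, Hk2, Mdh1 and Myc.

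**Figure D2:**
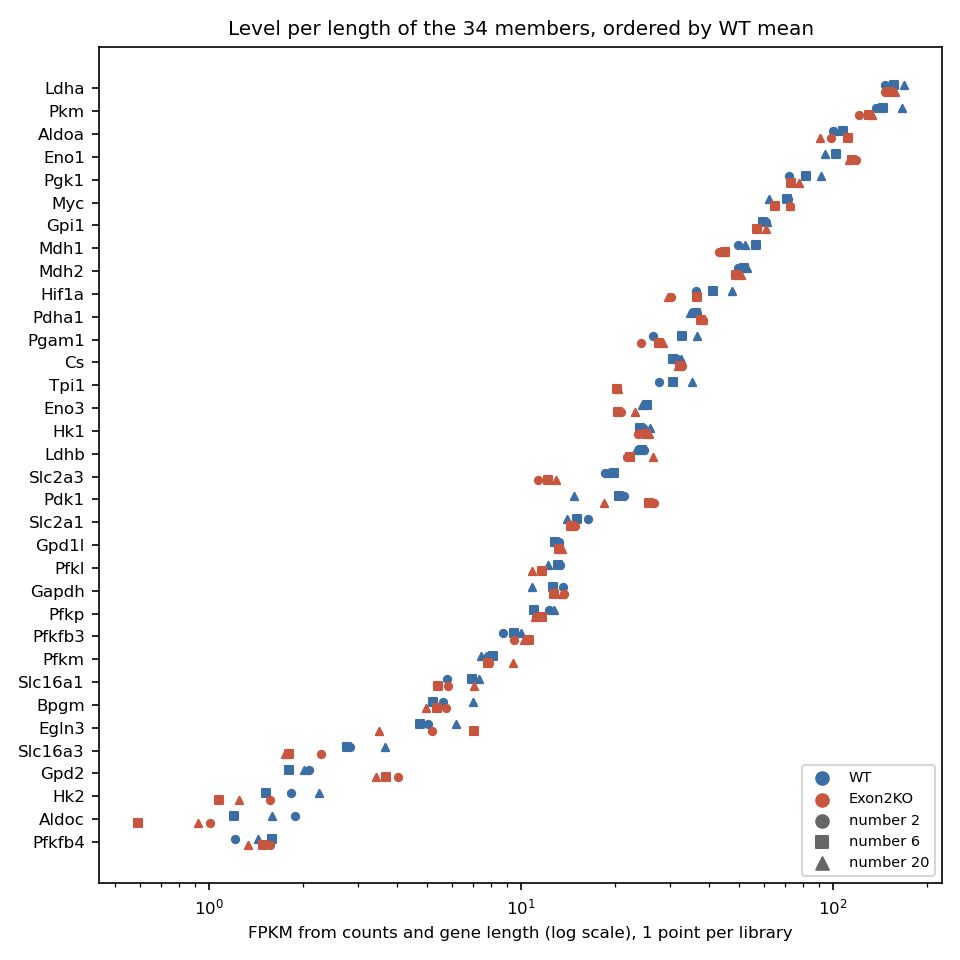
FPKM computed from counts and gene length (log scale) of the 34 genes in each of the 6 libraries, ordered from the highest WT mean (Ldha, 158 FPKM) to the lowest (Pfkfb4, 1.41 FPKM). Slc2a3, Tpi1 and Gpd2 show the clearest gap between WT and Exon2KO, and Gapdh lies below Tpi1, Pgk1, Pgam1 and Eno1. The order of genes depends on the deposited gene length, which for Gapdh is 4133 bases against 1420 in its longest coding transcript.

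PFKFB3 and PFKFB4 set the level of the activator of phosphofructokinase, and neither gene passed a test (log2 fold changes 0.14 and 0.08). For lactate, Ldha was at 479, 519 and 551 CPM in WT and 495, 507 and 531 CPM in Exon2KO, with overlapping groups and a log2 fold change of -0.02 (95% interval -0.19 to 0.16). Ldhb, the subunit more common in oxidative tissue, made up 13.4% of the summed FPKM of both in WT and 13.4% in Exon2KO. The lactate exporters are MCT1 (Slc16a1) and MCT4 (Slc16a3), of which MCT4 is the one typical of cells that export much lactate. Slc16a3 was at 14.9, 14.7 and 19.1 CPM in WT and 12.3, 9.69 and 9.40 CPM in Exon2KO. Its groups did not overlap. It fitted a log2 fold change of -0.63 (SE 0.15, adjusted p = 0.0109 with the block, 0.111 without). Without the block it also passed in DESeq2 (adjusted p = 0.0355) and in edgeR with no count filter (adjusted p = 0.0265), and without both libraries numbered 20 the log2 fold change was -0.43 (adjusted p = 0.357). Slc16a1 had a log2 fold change of -0.10 and did not pass. The MCT4 share of the pair's FPKM was 28.4% to 33.3% in WT and 19.8% to 28.0% in Exon2KO (exact permutation p = 0.1, adjusted 0.2).

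Pyruvate dehydrogenase, whose catalytic subunit is encoded by Pdha1, turns pyruvate into acetyl-CoA inside mitochondria, and PDK1 is a kinase that switches it off. Pdk1 was at 164, 159 and 113 CPM in WT 2, 6 and 20 and at 210.1, 203 and 146 CPM in Exon2KO 2, 6 and 20. Both libraries numbered 20 were low, and the groups overlapped because Exon2KO 20 lay below WT 2 and WT 6. Yet within each number Exon2KO was above WT by a log2 ratio of 0.36, 0.35 and 0.36. Both fits gave a log2 fold change of 0.36, with SE 0.18 (adjusted p = 0.55) without the block and SE 0.06 (adjusted p = 0.000665) with it. Leaving out 1 library without the block gave 0.20 without WT 20 to 0.50 without Exon2KO 20. Pdha1 had a log2 fold change of 0.12 and did not pass, although its groups did not overlap.

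**Figure D3:**
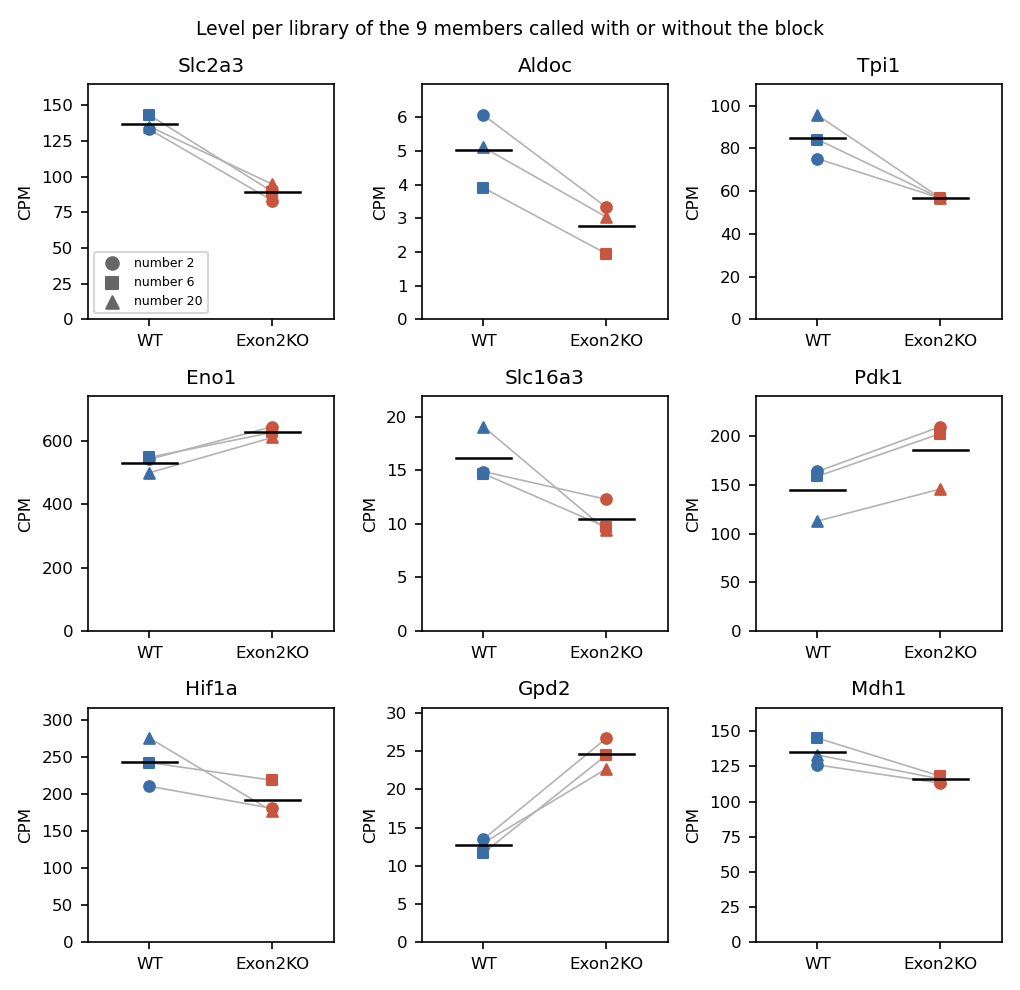
CPM per library, from 0, of the 9 genes called in the fit without or with the replicate block. Symbols mark the column number, grey lines join libraries of the same number and black bars are genotype means (n = 3); Pdk1 shows parallel lines with both number 20 libraries low, while Slc2a3 and Gpd2 separate by genotype at every number.

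Of the regulators, Myc, a transcription factor that drives glycolytic genes in activated T cells, was at 193, 193 and 167 CPM in WT and 200.2, 179.7 and 200.4 CPM in Exon2KO. The groups overlapped, and the log2 fold change was 0.07 (95% interval -0.12 to 0.26, adjusted p = 0.863). Hif1a, the oxygen-regulated subunit of HIF-1, was at 211, 243 and 276 CPM in WT and 181, 219 and 177 CPM in Exon2KO. Exon2KO 6 lay above WT 2, so the groups overlapped, but within each number Exon2KO was below WT. The log2 fold change of -0.34 (SE 0.09) passed with the block (adjusted p = 0.0422) and not without it (adjusted p = 0.235), and without both libraries numbered 20 it was -0.18 (adjusted p = 0.64). Egln3, a HIF target that encodes a hydroxylase acting on HIF, ranged from 9.45 to 19.1 CPM within Exon2KO and had a log2 fold change of 0.02 (95% interval -0.53 to 0.56).

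Among the shuttles, Gpd2 rose. Gpd2 (ENSMUSG00000026827, chr2:57237635-57370719, plus strand) was at 13.5, 11.7 and 13.0 CPM in WT and at 26.7, 24.5 and 22.7 CPM in Exon2KO. Every Exon2KO library was above every WT library. This was a log2 fold change of 0.95 (SE 0.12, adjusted p = 0.00527), or 1.93 times WT, and it was called in all 15 alternative settings, the highest adjusted p being 0.0467 without Exon2KO 2. Its level stayed low beside the other genes, at 1.97 FPKM in WT and 3.71 FPKM in Exon2KO. A gene on the opposite strand, A930012O16Rik, overlaps 7.44% of its exon bases and held 36 counts over all libraries, against 2102 for Gpd2. Gpd1l, a cytosolic relative of the shuttle's other enzyme, had a log2 fold change of 0.07 and did not pass. Mdh1 was at 126, 145 and 133 CPM in WT and 113, 118 and 116 CPM in Exon2KO, without overlap; its log2 fold change of -0.22 (SE 0.06) passed with the block (adjusted p = 0.031) and not without it (adjusted p = 0.246). Mdh2 and Cs, the mitochondrial malate dehydrogenase and citrate synthase, had log2 fold changes of -0.03 and 0.07 with no call. The MDH2 share of the pair's FPKM was 47.7% to 50.3% in WT and 51.9% to 53.0% in Exon2KO (exact permutation p = 0.1, adjusted 0.2).

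**Figure D4:**
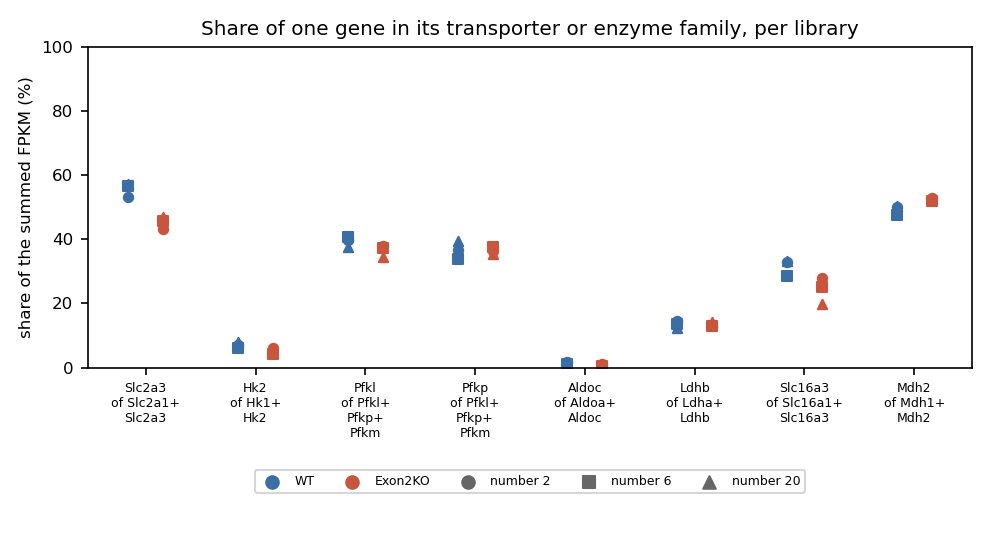
Share of 1 gene in the summed FPKM of its transporter or enzyme family, in percent, per library and genotype. The Slc2a3, Slc16a3, Aldoc and Mdh2 shares do not overlap between genotypes; the Hk2, Pfkl, Pfkp and Ldhb shares do.

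Of the 8 family shares shown, 4 did not overlap between genotypes. How large a share is depends on the deposited gene lengths, such as 13401 bases for Pfkp, whose longest coding transcript has 4145. For CPM of single genes 17.7% of all genes tested did not overlap, which is not a value for family shares. The exact permutation test cannot go below 0.1 with 3 libraries a genotype, and an exact sign-flip test over the 3 column numbers, added after seeing the data, cannot go below 0.25, so neither can pass 0.05. Within the numbers 2, 6 and 20 the Slc2a3 share differed by -10.0, -10.9 and -10.4 points. The Hk2 share (-0.695, -1.84 and -3.31 points) and the Pfkl share (-2.05, -3.41 and -3.00 points), whose groups overlap, were also lower in Exon2KO within each number. The exact sign-flip p was 0.25 for Slc2a3, Hk2 and Pfkl. With counts in place of FPKM the differences were -0.506, -1.33 and -2.4 points for Hk2 and -1.27, -3.65 and -0.635 points for Pfkl. The mean Pfkl difference with FPKM was -2.82 points, and -1.81 points without Exon2KO 20. Shares of counts, without the correction for length, gave differences of the same sign for the 4 that did not overlap, Slc2a3 (-9.11 points), Slc16a3 (-7.88 points), Aldoc (-0.728 points) and Mdh2 (3.15 points). The Pfkp share, whose groups overlapped, differed by -0.317 points with FPKM and by 0.428 points with counts, and by -1.66 points without WT 6 to 1.05 points without WT 20 with FPKM.

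Promoter sequences are shown for 2 genes called without the block and, chosen after their values were seen, for 2 called with it, because the HIF and Myc binding letters bear on how glycolytic genes are usually controlled. They are from RefSeq (GRCm38.p6), read on the gene's strand from 250 bases before the listed start and ended before the first annotated exon; capitals mark ACGTG or its reverse complement CACGT, the core of the hypoxia response element, which includes the E-box CACGTG. Slc2a3 and Myc had no entry.
Tpi1 chr6:124814297-124814408 (minus): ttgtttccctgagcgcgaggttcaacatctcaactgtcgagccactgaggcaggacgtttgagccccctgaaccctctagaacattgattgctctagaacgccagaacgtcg
Gpd2 chr2:57237428-57237634 (plus): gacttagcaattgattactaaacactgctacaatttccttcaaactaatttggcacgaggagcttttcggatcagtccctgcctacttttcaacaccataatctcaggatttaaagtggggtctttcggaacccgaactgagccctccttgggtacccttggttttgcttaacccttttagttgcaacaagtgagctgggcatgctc
Slc16a3 chr11:120948817-120949052 (plus): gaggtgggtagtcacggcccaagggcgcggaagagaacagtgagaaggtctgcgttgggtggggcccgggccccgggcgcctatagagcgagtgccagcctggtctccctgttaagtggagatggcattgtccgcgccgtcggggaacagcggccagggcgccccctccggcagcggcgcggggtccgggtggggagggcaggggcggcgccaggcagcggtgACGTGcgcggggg
Hif1a chr12:73907617-73907866 (plus): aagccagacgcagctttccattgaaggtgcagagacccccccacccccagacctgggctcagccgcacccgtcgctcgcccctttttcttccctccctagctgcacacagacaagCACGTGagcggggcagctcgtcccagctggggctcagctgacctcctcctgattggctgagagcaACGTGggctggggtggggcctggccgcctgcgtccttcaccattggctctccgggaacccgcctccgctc
Tpi1 and the shown start of Gpd2 hold no match, while a second listed start of Gpd2 does, Slc16a3 holds 1 and Hif1a holds an E-box and a further core.

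Of the 32 genes with a promoter entry, 16 (50%) held the core on either strand in the 250 bases before a listed start, against 18.5% of 27025 genes with an entry. For the E-box the shares were 6 of 32 (18.8%) and 6.86%. Genes with several listed starts had more chances of a match. The 27025 genes were not limited to those that passed the filter on low counts, while all 32 genes did. Shares among all genes tested were not computed, so whether the 32 hold the core or E-box more often than these was not tested. The core stood in 4 of the 8 genes called in either fit and in 12 of the 24 others. A match describes letters only and does not show that a factor binds there.

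**Figure D5:**
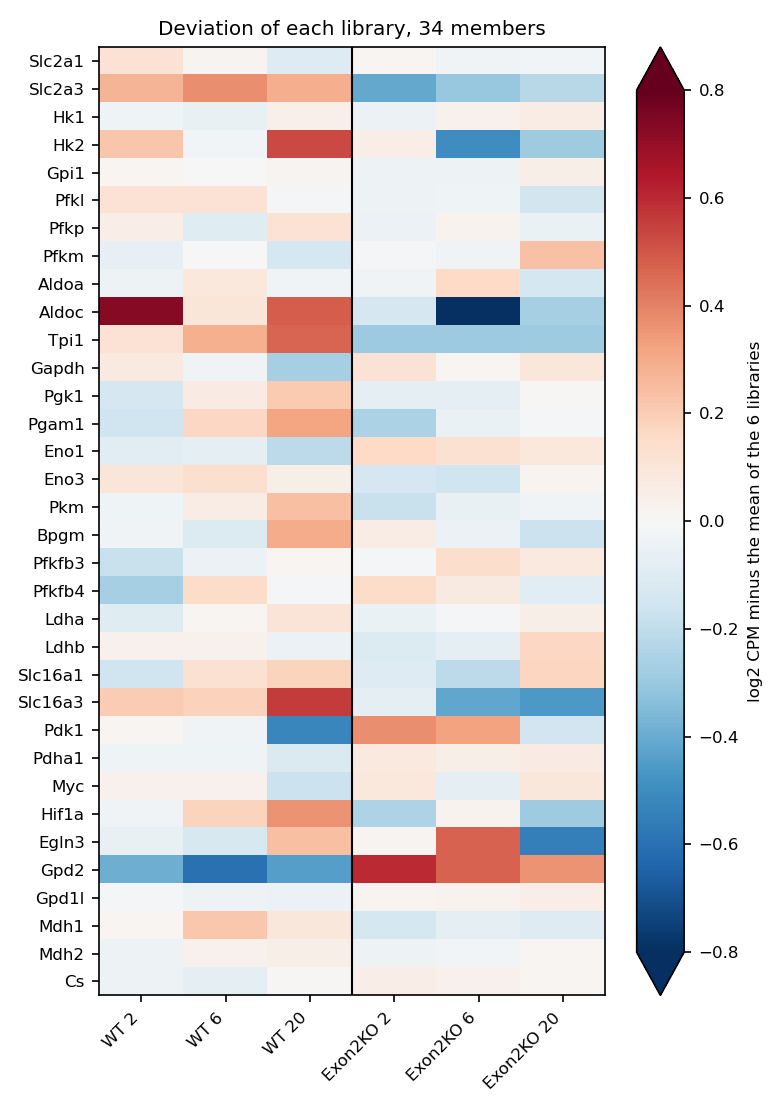
Deviation of log2 CPM in each library from the mean of the 6 libraries, for the 34 genes; red is above the mean and blue below, with the scale ending at 0.8 either way. Slc2a3, Tpi1 and Gpd2 split at the line between genotypes, while Pdk1 is lowest in both libraries numbered 20.

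Beyond genotype, 2 of the 34 genes differed between column numbers, Pdk1 (adjusted p = 0.000189) and Pgam1 (adjusted p = 0.0347), against 10.4% of all genes tested. Pgam1, the phosphoglycerate mutase, was at 51.9, 64.8 and 71.9 CPM in WT 2, 6 and 20 and at 48.6, 55.7 and 57.4 CPM in Exon2KO 2, 6 and 20. The low Pdk1 in both libraries numbered 20 came with the high proliferation and myeloid markers given above. It also came with the lowest erythroid marker sums, 5.4 CPM in WT 20 and 3.49 CPM in Exon2KO 20. What part these markers had in it was not tested. Leaving out both of these libraries gave the same 3 calls as the comparison of all 6. In the comparison without them 2.43% of all genes tested passed. It gave log2 fold changes of -0.68 for Slc2a3, -0.49 for Tpi1 and 1.02 for Gpd2 (adjusted p = 0.00442, 0.0268 and 0.00606). Aldoc, Eno1, Pdk1 and Mdh1 had log2 fold changes of -0.92, 0.22, 0.35 and -0.23 in that comparison, which has no block; they did not pass without the block with all 6 libraries either.

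Other genes of the pathway and its control were taken as 10 lists with 161 genes, of which 159 were in the table and 140 were tested. Without the block 1 of 140 (0.714%) passed, against 2.33% of all genes: Rragd, a GTPase that carries amino acid signals to mTORC1, at 27.5 to 33.0 CPM in WT and 15.9 to 19.0 CPM in Exon2KO (log2 fold change -0.82, adjusted p = 0.0094). It was not called without WT 2 or without Exon2KO 2. With the block 16 of 140 (11.4%) passed, 7 higher and 9 lower, a share near that of all genes. The 16 other glycolysis genes tested had 4 of these, among them Eno2, the neuronal enolase (log2 fold change -0.96, adjusted p = 0.00376), and Ldhd, which acts on D-lactate (0.87, adjusted p = 0.00747). Of the 8 serine and one-carbon genes, Phgdh and Psat1, which take a glycolytic intermediate into serine, were lower (-0.26 and -0.33, adjusted p = 0.0091 and 0.0179 with the block). Single genes passed in 4 lists with the block. These were Prps2 of the pentose phosphate list (-0.24), Idh2 of the citrate cycle (0.32), the malic enzyme gene Me2 of the shuttle partners (0.39) and Odc1, a Myc target, of the Myc list (-0.65). Of the 19 HIF-linked genes Ddit4 was higher (0.42) and Ndrg1 lower (-0.46), and of the 19 nutrient sensing genes Rictor was higher (0.37) and Sesn1 and Sesn2 lower (-0.28 and -0.53). No gene passed in the glycogen and hexosamine list or the list from pyruvate to acetyl-CoA, in either fit of edgeR; at an unadjusted p under 0.05 without the block these held 0 of 11 and 1 of 11 genes, against 12.1% of all genes tested.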

How the data were processed

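Raw counts per gene, FPKM, scaled counts and a genotype comparison (log2 fold change, p-value and adjusted p-value) were deposited in 1 table. Per the submitters' processing notes the tools were HISAT2 2.0.5, StringTie 1.3.3b, featureCounts 1.5.0-p3 and DESeq2 1.16.1 with build mm10; strand setting, annotation release and treatment of reads with several matches are not given in the sources used here. The deposited signal columns, genotype means of scaled counts by the column names, were not used here. The log2 fold changes and p-values of the authors' deposited table were copied and not recomputed. The 6 FPKM columns deposited by the authors were not used, since columns could be matched to a genotype but not to a sample; FPKM for levels per length and family shares was computed from the counts, the deposited gene length and the column total, in place of the deposited FPKM that had been planned.

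Deposited counts were tested with edgeR 4.0.16 (R 4.3.3): filterByExpr, TMM scaling, robust quasi-likelihood test, two-sided, Benjamini-Hochberg over 14919 genes, call at an adjusted p under 0.05. Alternatives used DESeq2 1.42.0 and limma 3.58.1, other filters and scalings, added counts of copies, each library left out, and a block. The copies were pseudogenes and retrotransposed genes at other loci that share at least 50 stretches of 50 bases with a gene. Each copy was added to 1 gene only, and other loci with shared stretches were left out. The column numbers 2, 6 and 20 were used as the block although the labels do not explain them. Deviations from the genotype means correlated at 0.271, 0.369 and 0.494 within a number over 14919 genes, and at -0.372 to 0.0538 across numbers. Deviations from a mean of 3 libraries sum to 0, so these correlations are not independent. Whether the libraries of a number were paired is not stated. The titles number replicates otherwise, so columns were matched to genotypes only. No libraries of a genotype were duplicates (chi-square per degree of freedom 8.12 to 23.6). A floor of 3 counts is 0.141 to 0.169 CPM and covers counting error only. Scripts were tested on simulated data. The 34 genes, the linked lists and the markers were chosen with earlier results of these data known. Values per library are given for genes called in either fit and for Myc, Hif1a, Slc2a1, Ldha, Hk2 and Pkm; linked genes are named if called without the block and, beyond these, for the 3 largest log2 fold changes called with it per list. Pgam1 was added after its values were seen.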

Additional observations from a re-analysis of the deposited data

How the results depend on the processing

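Slc2a3 and Gpd2 were called in all 15 alternatives and Tpi1 in 13. The replicate block pairs libraries by column number. With it 9 of the 34 genes, 16 linked genes and 1450 genes in all (9.72%) were called, against 3, 1 and 348 (2.33%). DESeq2 gave 4, 5 and 639, and edgeR with no count filter 4, 4 and 617. Both fitted 26773 genes in place of 14919, and the genes called were 2.39% and 2.3% of those fitted. DESeq2 was run with its default filter on the adjustment, so it may have adjusted over fewer genes than it fitted. The DESeq2 setting changed the tool and the number of genes tested at once. Leaving out 1 library gave 2 to 3 of the 34 genes, 0 to 3 linked genes and 86 to 314 genes in all (0.557% to 2.05%). It gave a median log2 fold change of the 34 genes from -0.05 to -0.01, and upper-quartile scaling gave -0.04. Without both libraries numbered 20, 3 linked genes were called, beside 362 of 14926 genes in all (2.43%). Of the 14 genes refitted under every alternative, 3 with estimates near 0 changed sign: Slc2a1, from -0.08 to 0.03 over the fits without 1 library and positive without WT 2, Myc to -0.02 without both libraries numbered 20, and Ldha, from -0.07 to 0.03 over the fits without 1 library, positive without WT 20 or Exon2KO 2 and 0.0 without both libraries numbered 20. Among the other genes Egln3 went from 0.02 to -0.02 with the replicate block. The cause of these shifts was not tested. Leaving out a library leaves fewer samples, and 3 libraries per genotype limit what could pass.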

Other observations

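Among the linked genes, 11 of the 140 tested (7.86%) differed between column numbers in edgeR's fit with genotype and number, against 10.4% of all genes tested, so the share does not set the linked genes apart; the genes below were chosen after their values were seen. Txnip, which restrains glucose uptake, was at 680.3, 926 and 484 CPM in WT 2, 6 and 20 and at 878, 1047 and 637 CPM in Exon2KO 2, 6 and 20 (adjusted p = 3.62e-05 for number). Ddit4, a stress-induced brake on mTORC1, had the same order, at 295, 397 and 207 CPM in WT and 397, 502 and 291 CPM in Exon2KO (adjusted p = 7.88e-06). Mxd1, a partner of Max that opposes Myc, went the other way, at 93.7, 90.5 and 145 CPM in WT and 94.9, 85.0 and 159 CPM in Exon2KO (adjusted p = 6.81e-06). Odc1, which makes polyamines, was highest in number 20 of each genotype and lower in Exon2KO at each number, at 178, 169 and 264 CPM against 115, 107 and 167 CPM. The libraries numbered 20 also had the highest proliferation and myeloid marker sums. Erythroid marker sums had the same order as Txnip and Ddit4. They were 11.3, 17.4 and 5.4 CPM in WT 2, 6 and 20, and 9.89, 13.7 and 3.49 CPM in Exon2KO 2, 6 and 20. What part these markers had in the values of the genes above was not tested.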
